A study of Homo sapiens with 6 samples.

Results

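ETV1, ETV4, ETV5, ETV6, ETS1, ETS2, ELK1, ELK3, ELK4 and GABPA encode transcription factors of the ETS family. These 10 genes were taken by symbol from the 19977 genes counted in the RNA-seq libraries, and each symbol matched 1 Ensembl gene in GENCODE 44. The libraries were made from NCRM-1, a wild type human induced pluripotent stem cell (iPSC) line, grown for 4 days as aggregates in vertical wheel bioreactors. A group of 3 libraries came from E8 medium with polyethylene glycol at 10 mg/ml plus heparin sodium salt at 0.1 µg/ml (PEG and HS), and a group of 3 came from E8 without additives (E8 control). In both groups 50% of the medium was replaced on day 2. The treatment recorded for each library set its group, although the protocol text of the labels describes the additives for all 6. By the labels each medium seems to have had a single bioreactor, so the vessel cannot be told apart from the medium, and p-values may measure only the spread between samples of a vessel. PEG and heparin were added together and their effects cannot be told apart either.

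ETS factors share a winged helix-turn-helix domain that binds DNA around a GGAA core. ETV1, ETV4 and ETV5 form the PEA3 group. In many tissues their transcription is switched on by fibroblast growth factor (FGF) signalling through the kinase ERK, and they are widely read as a record of that signal. ETS1, ETS2 and the ternary complex factors ELK1, ELK3 and ELK4 are better known as proteins that ERK-pathway kinases phosphorylate. FGF2 is a component of E8 and maintains human pluripotent cells, and heparin is a known cofactor of FGF binding to its receptors.

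The 10 genes lie on 7 autosomes and the X chromosome (GRCh38, GENCODE 44). In the PEA3 group, ETV1 (ENSG00000006468) spans chromosome 7, 13891229 to 13991425, ETV4 (ENSG00000175832) spans chromosome 17, 43527844 to 43579620, and ETV5 (ENSG00000244405) spans chromosome 3, 186046314 to 186110318. They share little sequence with other genes. By 31-base words, 0.0510% of the ETV1 transcript sequence, 0.529% of that of ETV4 and 2.86% of that of ETV5 also occur elsewhere, for ETV5 mainly in DGKG. Among the others the highest share was 17.3% in GABPA, mainly in the copy GABPAP, and 12.05% of the GABPA exon bases overlap ATP5PF on the opposite strand. The library kit keeps strand, but how shared reads and strand were counted is not given in the sources used here, so the GABPA values are the least certain of the 10.

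RefSeq promoter windows (GRCh38.p14, 250 bases before to 50 after each start) were found for 7 of the 10 genes, in 14 windows. None was found for ETV4, ETV5 and ETS1. Letters known to be bound by capicua (CIC), a repressor of PEA3 genes, were searched on both strands, as were letters bound by ETS factors. Of all 35116 windows, 1.65% hold TGAATGAA, 1.03% hold TGAATGGA and 4.14% hold CCGGAAGT. No window of the 10 genes held TGAATGAA. TGAATGGA occurred in 1 of 6 ETV1 windows, the one farthest upstream, and CCGGAAGT in the windows of ELK4 and GABPA. The AP-1 letters TGACTCA, held by 4.95% of all windows, were in no window of the 10 genes. Below are the 250 bases before the start for a PEA3 gene and for an ELK gene, each on the minus strand of the genome and written 5′ to 3′. They are shown because they hold a capicua-type or an ETS-type match, which is in capitals. The ETV1 stretch is chr7:13991426-13991675, with the last base of the match 118 bases before the start, and the ELK4 stretch is chr1:205632012-205632261, with the last base of the match 15 bases before the start. A match describes these letters only and says nothing of binding in these cells.
ETV1: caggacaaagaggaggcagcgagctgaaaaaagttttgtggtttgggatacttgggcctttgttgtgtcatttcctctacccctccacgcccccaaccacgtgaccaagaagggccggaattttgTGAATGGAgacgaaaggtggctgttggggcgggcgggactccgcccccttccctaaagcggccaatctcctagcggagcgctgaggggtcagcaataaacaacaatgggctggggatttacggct
ELK4: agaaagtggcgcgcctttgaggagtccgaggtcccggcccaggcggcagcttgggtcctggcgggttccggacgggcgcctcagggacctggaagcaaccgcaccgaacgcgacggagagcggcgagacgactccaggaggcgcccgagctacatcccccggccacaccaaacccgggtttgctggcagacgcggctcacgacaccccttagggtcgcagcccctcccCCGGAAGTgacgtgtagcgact

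Reads counted on genes were 26991279 to 36185138 per library, with overlapping ranges in the media. All 10 genes passed the filter of at least 10 counts over the 6 libraries, and each had from 683 to 7461 counts in every library. Levels are given as CPM, counts per 1000000 counted reads, scaled with edgeR's TMM factors. Between genes they are compared per kb of annotated exon, which counts all annotated exons of a gene and can be longer than the transcript in use. The media were compared with edgeR over the 16505 genes that passed the filter, and a gene was called at an adjusted p under 0.05. Log2 fold changes are PEG and HS over E8 control. In bulk RNA, fewer cells that express a gene and less RNA of it per cell cannot be told apart.

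All 3 PEA3 genes rose in PEG and HS, by 1.35-fold (ETV1) to 1.64-fold (ETV5). Of the 7 other ETS genes, 5 rose, by 1.12-fold (ETS1) to 1.33-fold (ELK3), ELK1 fell to 0.911-fold, and GABPA was not called. In all, 8 of the 10 genes were called higher and 1 lower, where 12.2% of the genes tested were called higher, 13.1% lower and 25.3% in either direction. The 2 groups of libraries were apart, with no overlap, for 9 of the 10 genes, against 39.3% of all genes tested. The median log2 fold change was 0.62 over the PEA3 genes, 0.23 over the 7 others and 0.0031 over all genes tested. The difference between the PEA3 genes and the others was not tested, since the genes of a group are not replicates.

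**Figure D1:**
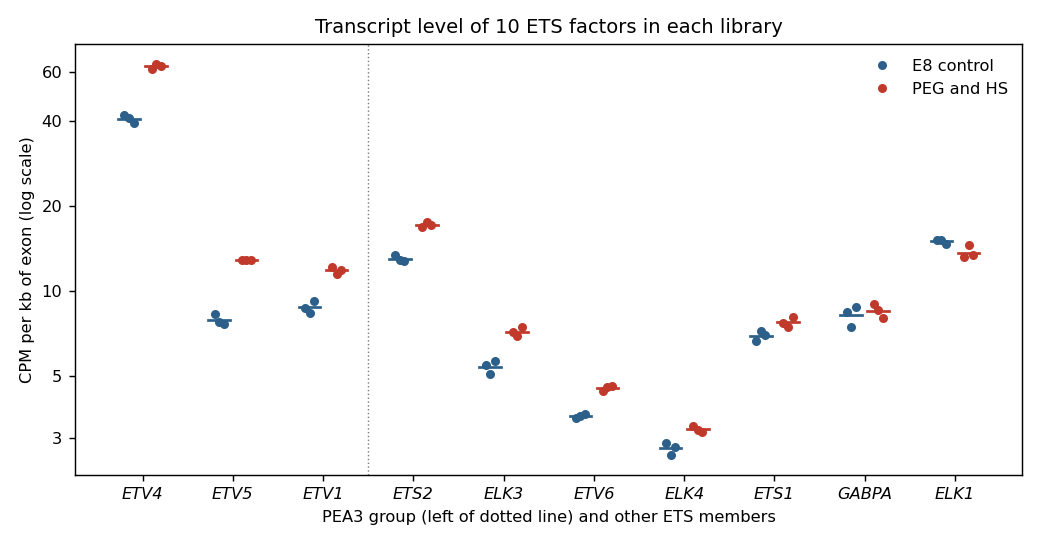
Level of each of the 10 ETS genes in each library, in CPM per kb of exon on a log axis, with 3 points per medium and a line at their mean. ETV4 stands above all others in both media, and the points of the media overlap for GABPA alone.

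ETV4, the founding member of the PEA3 group, was the most abundant of the 10 per kb. Its level was 215, 226 and 220.5 CPM across the PEG and HS replicates and 148, 145 and 139 CPM in the E8 control replicates. Every PEG and HS library was above every E8 control library. The means were 220.5 ± 5.21 CPM (SD, n = 3) and 144 ± 4.27 CPM (SD, n = 3), a log2 fold change of 0.62 (SE 0.031, 95% interval 0.55 to 0.68, adjusted p = 8.74e-10, edgeR). Of the 16505 genes tested, 494 had a larger log2 fold change.

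ETV5, also called ERM, changed most of the 10. It was measured at 74.2, 74.2 and 74.5 CPM with PEG and HS and at 47.7, 44.7 and 44.01 CPM in the control libraries. The 3 PEG and HS libraries were nearly equal, with a coefficient of variation of 0.286%, and all lay above the controls. In E8 control it was 4.31%, and 3 values cannot show that ETV5 varies less than other genes. The means were 74.3 ± 0.212 CPM (SD, n = 3) and 45.5 ± 1.96 CPM (SD, n = 3), and the log2 fold change was 0.71 (SE 0.037, 95% interval 0.63 to 0.79, adjusted p = 1.59e-09, edgeR). A larger log2 fold change was seen in 384 of the genes tested.

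ETV1, or ER81, rose least of the PEA3 genes. Its values were 117, 110.3 and 114 CPM with PEG and HS and 83.6, 80.0 and 88.5 CPM in the control libraries, again with no overlap. The means of 114 ± 3.40 CPM (SD, n = 3) and 84.0 ± 4.23 CPM (SD, n = 3) gave a log2 fold change of 0.44 (SE 0.038, 95% interval 0.35 to 0.52, adjusted p = 5.81e-07, edgeR). The ETV1 interval lies under those of ETV4 and ETV5. The intervals of ETV4 and ETV5 overlap. The 3 genes thus shared a direction, with ETV1 rising less, and differences in size between them were not tested. Within a library, the level of ETV4 per kb was 4.77 to 4.997 times that of ETV5 with PEG and HS, compared with 5.09 to 5.31 times in E8 control. ETV5 over ETV1 per kb was 1.05 to 1.12 with PEG and HS but 0.827 to 0.948 in E8 control, so their order per kb differed between the media. Not divided by exon length, ETV1 was above ETV5 in both media, with means of 114 against 74.3 CPM in PEG and HS and 84.0 against 45.5 CPM in E8 control.

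Summed per kb, the PEA3 genes were at 86.3, 88.5 and 87.5 CPM per kb in the PEG and HS replicates and at 59.0, 57.2 and 56.5 CPM per kb in the E8 control replicates. The 7 other genes together were at 61.6, 62.9 and 61.8 CPM per kb and at 55.5, 54.0 and 55.2 CPM per kb. The PEA3 genes made up 58.5% ± 0.124 (SD, n = 3) of the summed level of the 10 genes in PEG and HS and 51.2% ± 0.545 (SD, n = 3) in E8 control. Most of the PEA3 sum was ETV4. Not divided by exon length, the PEA3 genes summed to 407 to 410 CPM in PEG and HS, against 340.5 to 344 CPM for the 7 others. In E8 control the undivided PEA3 sum was the smaller, at 269 to 279 CPM against 291 to 300 CPM. The PEA3 majority in E8 control thus holds on the per-kb scale only.

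ETS2, a proto-oncogene product that ERK can phosphorylate, was second in level per kb in PEG and HS. It was counted at 83.8, 87.6 and 85.2 CPM with PEG and HS and at 66.8, 63.9 and 63.4 CPM in the control libraries. The media did not overlap, and the log2 fold change was 0.40 (SE 0.034, 95% interval 0.33 to 0.48, adjusted p = 3.65e-07, edgeR). Its close relative ETS1 moved less. ETS1 had 55.2, 53.1 and 57.7 CPM with PEG and HS and 47.5, 51.5 and 49.9 CPM in the control libraries, a narrow gap without overlap (log2 fold change 0.16 with an SE of 0.042, adjusted p = 0.0129, edgeR). This ETS1 call was lost without PEG and HS replicate 3 (adjusted p = 0.0676) and without E8 control replicate 1 (adjusted p = 0.067, both edgeR).

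The ternary complex factors bind DNA beside serum response factor (SRF) at the promoters of immediate early genes, and they went in different directions. ELK3, which represses transcription until it is phosphorylated, was at 33.1, 32.2 and 34.5 CPM with PEG and HS and at 25.3, 23.5 and 26.2 CPM in the control libraries (log2 fold change 0.41 with an SE of 0.052, 95% interval 0.30 to 0.52, adjusted p = 2.46e-05, edgeR). ELK4, also known as SAP1, was at 40.4, 39.2 and 38.4 CPM and at 35.1, 31.8 and 34.0 CPM (log2 fold change 0.23 with an SE of 0.046, adjusted p = 0.00183, edgeR). Neither gene overlapped between the media. ELK1 was the exception. Its level was 44.8, 49.4 and 45.5 CPM with PEG and HS and 51.6, 51.6 and 49.9 CPM in the control libraries, so that PEG and HS replicate 2 came close to E8 control replicate 3. The log2 fold change was -0.13 (SE 0.043, 95% interval -0.23 to -0.04, adjusted p = 0.0306, edgeR). With DESeq2 the adjusted p was 0.0536. With edgeR it was 0.142 and 0.103 without PEG and HS replicates 1 and 3, and 0.0771 and 0.0835 without E8 control replicates 1 and 2.

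ETV6, a repressor also known as TEL, was at 31.9, 32.9 and 33.2 CPM with PEG and HS and at 25.5, 26.1 and 26.4 CPM in the control libraries. The replicates of both media were close together and did not overlap (log2 fold change 0.33 with an SE of 0.045, 95% interval 0.23 to 0.42, adjusted p = 6.26e-05, edgeR). GABPA, the DNA-binding subunit of GA-binding protein, had 51.4, 49.3 and 46.1 CPM with PEG and HS and 48.3, 42.8 and 50.3 CPM in the control libraries. These libraries overlapped (log2 fold change 0.05 with an SE of 0.056, adjusted p = 0.533, edgeR). The 95% interval was -0.07 to 0.18, and its upper end is under the lower end of 0.35 for ETV1. Its coefficient of variation, 5.51% in PEG and HS and 8.26% in E8 control, was the highest of the 10 in both media.

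**Figure D2:**
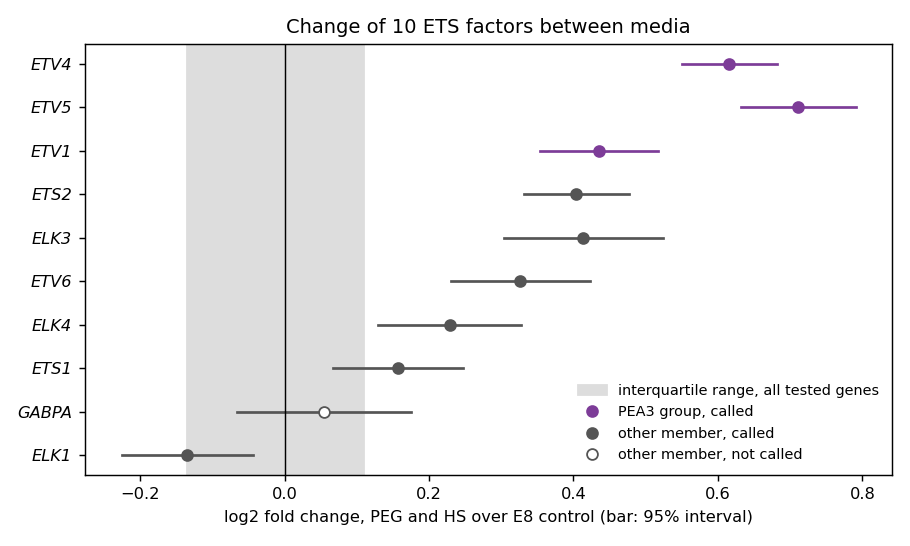
Log2 fold change of PEG and HS over E8 control for each of the 10 ETS genes, with its 95% interval and, in grey, the interquartile range of all genes tested. The intervals of ETV4 and ETV5 start at 0.55 and 0.63, above the upper end of 0.52 for ELK3, the highest among the non-PEA3 genes, while that of ETV1 overlaps those of ETS2, ELK3 and ETV6.

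The order of levels per kb was compared within each medium. In PEG and HS it ran ETV4 (62.7 ± 1.48 CPM per kb), ETS2 (17.2 ± 0.383), ELK1 (13.7 ± 0.728), ETV5 (12.9 ± 0.0368), ETV1 (11.8 ± 0.354), GABPA (8.52 ± 0.470), ETS1 (7.74 ± 0.322), ELK3 (7.17 ± 0.247), ETV6 (4.52 ± 0.0953) and ELK4 (3.23 ± 0.0802), each mean with its SD over 3 libraries. Ranges of neighbours overlapped for GABPA with ETS1 and for ETS1 with ELK3, and did not for the others. In E8 control ETV4 was again first, at 40.9 ± 1.21 CPM per kb, followed by ELK1 (15.02 ± 0.296), ETS2 (13.0 ± 0.369), ETV1 (8.76 ± 0.441), GABPA (8.20 ± 0.678), ETV5 (7.88 ± 0.340), ETS1, ELK3, ETV6 and ELK4. There the ranges overlapped for ETV1 with GABPA and for GABPA with ETV5. ETS2 and ELK1 changed places between the media on this per-kb scale only. Not divided by exon length, ETS2 was above ELK1 in both media, with means of 85.5 against 46.5 CPM in PEG and HS and 64.7 against 51.0 CPM in E8 control. ETS2 over ELK1 per kb was 1.21 to 1.28 with PEG and HS but 0.844 to 0.884 in E8 control.

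**Figure D3:**
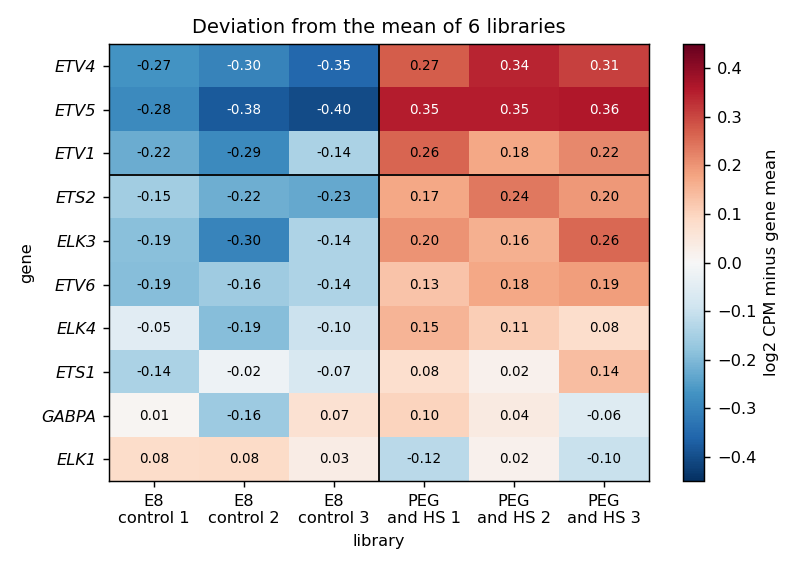
Log2 CPM of each ETS gene minus its own mean over the 6 libraries, with E8 control at left and PEG and HS at right. ETV5 runs from -0.40 to 0.36, ETV4 from -0.35 to 0.34, and the sign differs between the media in every library for 8 genes, not for GABPA and ELK1.

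Among the 10 genes, the library profile nearest to ETV4 was that of ETV5, and the one nearest to ETV5 was that of ETV4. Their centred log2 CPM differed by a root mean square of 0.0540 over the 6 libraries, against 0.107 between ETV4 and ETS2 and 0.117 between ETV4 and ETV1. The same measure was taken for 10046 other protein-coding genes with a mean of at least 10 CPM. Nearest to ETV4 were THY1 (0.0105), which encodes the surface glycoprotein CD90, TFCP2L1 (0.0251), a transcription factor of naive pluripotency, and ZDHHC22 (0.0327), of the palmitoyltransferase family. Nearest to ETV5 were IQSEC2 (0.0330), a guanine exchange factor for ARF proteins, the inhibitory SMAD gene SMAD7 (0.0403) and ZDHHC22 (0.0413). With 6 libraries of 2 media, this likeness mostly describes genes with about the same step between the media.

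The remaining ETS genes did not share a direction (here and below, ± gives the SD over 3 libraries). Of these 18 genes, 10 stayed under 1 CPM in both media, 14 could be tested, and 2 were called higher and 5 lower (median log2 fold change -0.19), against 12.2% and 13.1% of all genes tested. ERG, best known from endothelial and blood development, rose from 7.20 ± 0.677 to 11.7 ± 1.35 CPM (log2 fold change 0.69 with an SE of 0.095, adjusted p = 6.31e-05, edgeR). SPIB, known from B cells and plasmacytoid dendritic cells, rose from 14.0 ± 0.215 to 17.3 ± 0.514 CPM (log2 fold change 0.30, adjusted p = 0.0012, edgeR). ELF3, an epithelial ETS factor, fell from 9.99 ± 0.0754 to 4.33 ± 0.316 CPM (log2 fold change -1.20 with an SE of 0.085, adjusted p = 4.41e-08, edgeR). ELF1 fell by 0.24 on the log2 scale (adjusted p = 0.00691, edgeR). The calls of ELF4 (log2 fold change -0.55, adjusted p = 0.0317) and ELF2 (log2 fold change -0.15, adjusted p = 0.0483) were each lost with DESeq2 and with several libraries left out, where the edgeR adjusted p reached 0.124 and 0.193. The ELF2 call was also lost with library-size scaling. The lower calls numbered 2 with DESeq2 and 3 without any 1 of PEG and HS replicates 1 and 2 and the E8 control replicates. The fifth lower gene, ETV3L, lay under 1 CPM and was named after its values were seen. ERF, a repressor that ERK removes from the nucleus, was at 109 ± 3.64 CPM with PEG and HS and 105 ± 4.17 CPM in the control libraries (adjusted p = 0.383, edgeR).

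Of 12 genes for partners and regulators of ETS proteins, 1 was called higher and 4 lower, against 12.2% and 13.1% of all genes tested, with log2 fold changes from -0.23 to 0.23. The lower calls numbered 2 with DESeq2 and 2 without PEG and HS replicate 1 or 2 or E8 control replicate 1 or 2. GABPB1, the partner subunit of GABPA, rose from 37.8 ± 1.17 to 44.3 ± 1.44 CPM (log2 fold change 0.23, adjusted p = 0.000868, edgeR). SRF, which the ELK proteins bind, fell from 109 ± 1.81 to 99.0 ± 3.04 CPM (log2 fold change -0.14, adjusted p = 0.00377, edgeR), and the coactivator gene CREBBP fell by 0.12 on the log2 scale (adjusted p = 0.00508, edgeR). CIC, the capicua gene, was at 118 ± 1.86 CPM with PEG and HS and 125 ± 0.449 CPM in the control libraries (log2 fold change -0.08, adjusted p = 0.0495, edgeR). That call was lost with DESeq2, with library-size scaling and with no filter. It was also lost with each library left out in turn, with an edgeR adjusted p of up to 0.154. ATXN1, whose product works with capicua, had a log2 fold change of -0.23 (adjusted p = 0.0314, edgeR). The ATXN1 call was lost with DESeq2, and without PEG and HS replicates 1 or 2 or E8 control replicates 1 or 2 (edgeR adjusted p up to 0.121). COP1 and DET1, of the ubiquitin ligase that degrades PEA3 proteins, were not called (log2 fold change -0.0047 and -0.08, adjusted p = 0.953 and 0.629, edgeR).

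Upstream genes, from FGF2 and its receptors to ERK and its substrates, had calls in both directions. Of 29 genes, 3 were called higher, 7 lower and 19 not, with a median log2 fold change of -0.01. Of all genes tested, 12.2% were called higher, 13.1% lower and 25.3% in either direction. The 4 largest changes were all in the ligand and its receptors. FGFR3 fell from 55.4 ± 3.27 to 13.8 ± 0.477 CPM (log2 fold change -2.00 with an SE of 0.055, adjusted p = 1.14e-12, edgeR), FGF2 by 0.57, FGFR2 by 0.54 and FGFR1 by 0.38 on the log2 scale (adjusted p = 1.6e-08, 3.12e-09 and 9.27e-08, edgeR). FGFR4 rose by 0.18 on the log2 scale (adjusted p = 0.00205, edgeR), as did the adaptor gene SHC1, from 288 ± 6.46 to 345.5 ± 11.01 CPM (log2 fold change 0.26, adjusted p = 8.9e-06, edgeR). The remaining higher gene was the exchange factor gene SOS1 (log2 fold change 0.10, adjusted p = 0.0438, edgeR). It was not called with DESeq2, upper-quartile scaling or filterByExpr, or with 4 of the libraries left out in turn. MAPK3, which encodes an ERK kinase, fell by 0.18 on the log2 scale (adjusted p = 0.00362, edgeR).

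Genes that ERK signalling is known to induce, many of them its feedback inhibitors, mostly rose. Of 21, 16 were called higher and 3 lower (median log2 fold change 0.44), against 12.2% and 13.1% of all genes tested. The 4 largest rises were in DUSP5 (log2 fold change 0.83) and DUSP6 (0.79), whose products dephosphorylate ERK, in IL17RD (0.81), which encodes the FGF inhibitor SEF, and in the Sprouty gene SPRY4 (0.79). Their adjusted p were 4.01e-09, 2.56e-10, 1.56e-11 and 2.47e-10 (edgeR). The CPM of DUSP6 went from 154 ± 8.61 to 266 ± 4.71 and that of SPRY4 from 189 ± 10.0 to 327 ± 8.83. EGR1, an immediate early gene with serum response elements that the ELK proteins and SRF occupy, went the other way, from 32.1 ± 1.63 to 8.55 ± 0.169 CPM (log2 fold change -1.91 with an SE of 0.060, adjusted p = 4.86e-12, edgeR). The other lower genes were SPHK1 (log2 fold change -0.75, adjusted p = 0.00556) and PHLDA1 (log2 fold change -0.35, adjusted p = 2.75e-05, edgeR). FOS, likewise an immediate early gene, rose from 5.002 ± 0.415 to 7.23 ± 0.458 CPM (log2 fold change 0.53, adjusted p = 0.000726, edgeR). FOSL1, IER2, IER3 and MYC of this list also rose, by 0.53, 0.39, 0.54 and 0.45 on the log2 scale (adjusted p = 0.00336, 7.29e-08, 1.41e-05 and 2.41e-08, edgeR). FOS and these 4 genes were named after their values were seen.

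**Figure D4:**
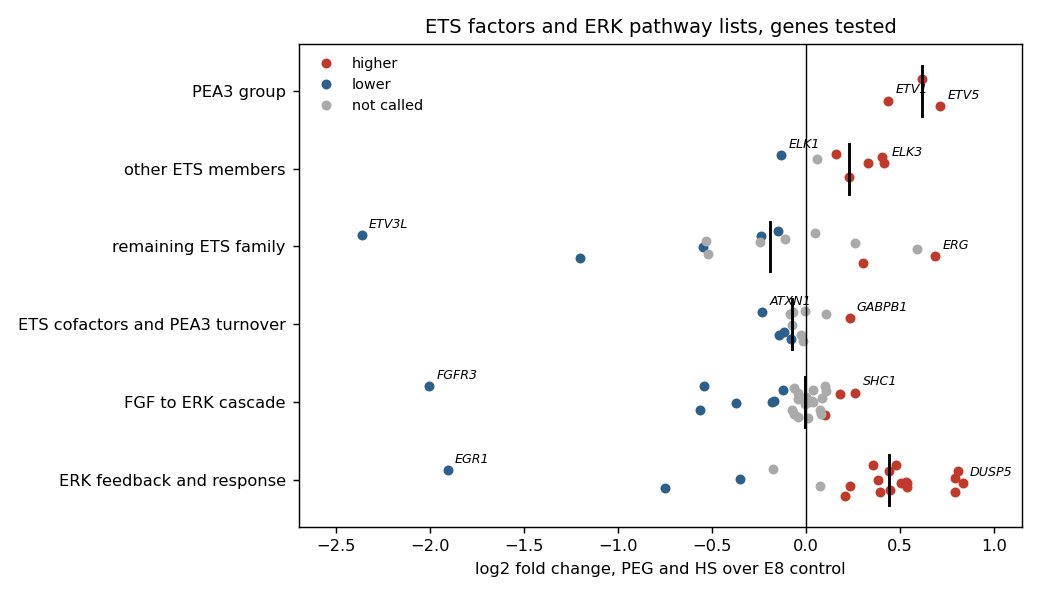
Log2 fold change of PEG and HS over E8 control for every tested gene of 6 lists, with colour for the call at an adjusted p under 0.05 and a black bar at the list median. The medians are 0.62 for the PEA3 group, 0.23 for the other ETS members, -0.19 for the remaining ETS family, -0.07 for cofactors and turnover, -0.01 for the FGF to ERK cascade and 0.44 for ERK feedback and response.

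The libraries carried the markers of pluripotent cells in both media. The 8 pluripotency markers summed to 8996 to 9186 CPM with PEG and HS and 9313 to 9439 CPM in the control libraries. Of them 3 were called higher and 3 lower, against 12.2% and 13.1% of all genes tested. Their log2 fold changes ran from -0.59 to 0.55, so the near-equal sums hide moves in both directions. For the marker lists of other cell types, the counts stand against 12.2% of all genes tested called higher and 13.1% lower. All 8 neuroectoderm markers were called lower in PEG and HS, with sums of 576 to 616 CPM against 790 to 821 CPM and a median log2 fold change of -1.49. NES made up most of these sums and fell by 0.24 on the log2 scale, less than the list median. Of 6 neural crest markers 1 was called higher and 2 lower, with sums of 106 to 116 CPM and 105 to 109 CPM. Of 8 trophectoderm and amnion markers, 6 of them tested, 3 were called lower, with sums of 12.2 to 12.9 CPM against 19.98 to 21.5 CPM. Most of these sums was TFAP2C. Means stayed under 1 CPM in both media for 6 of the 8, among them HAND1, which was called lower, and CGA, which had no count. Of 10 mesoderm and endoderm markers, 8 of them tested, 1 was called lower, with sums of 7.92 to 8.12 CPM against 9.11 to 10.1 CPM. Of 7 endothelial and blood markers 1 was called higher and 1 lower, with sums of 63.2 to 67.0 CPM against 58.9 to 62.1 CPM, mostly KDR. KDR was the marker called higher (log2 fold change 0.19) and TEK the marker called lower (log2 fold change -0.89). Of these 7 markers 3 had means under 1 CPM in both media, the blood marker PTPRC and the endothelial marker PECAM1 among them. KDR, TEK, TAL1 and RUNX1 had means above 1 CPM in both media. The part of these cell types in the ETS results was not tested.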

How the data were processed

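Polyadenylated RNA was sequenced from 3 PEG and HS and 3 E8 control libraries. According to the methods and the submitters' processing notes, the authors trimmed reads with Trim Galore (0.6.7), mapped them to GRCh38 with STAR (2.6.1) in an nf-core pipeline, and deposited raw read counts per Ensembl gene. The counting tool, strand setting and annotation release are not given in the sources used here. Of 19977 identifiers, 19916 matched GENCODE 44, which supplied symbols, positions and exon lengths.

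Genes with at least 10 counts in total over the 6 libraries (16505) were tested with edgeR (4.0.16, R 4.3.3), TMM factors, glmQLFit and glmQLFTest without covariate, and Benjamini-Hochberg adjustment over all of them. Each SE was derived from the F statistic, and each 95% interval from that SE and the degrees of freedom of the fit. For 1 gene, 3 against 3 libraries allow no two-sided exact permutation p under 0.1. No library was a copy of another: counts of replicate pairs gave a chi-square of 2.61 to 3.60 for each degree of freedom. Depth of 26991279 to 36185138 counts and a common biological coefficient of variation of 3.12% let small differences in these genes pass the test.

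The genes reported and the lists were chosen with earlier results of these data known. Named beyond the 10 ETS genes were, per list, up to 4 called genes in each direction with the largest change and a mean of at least 1 CPM, and the 3 profiles nearest to ETV4 and to ETV5. MAPK3, ERF, ETV3L, COP1, DET1, FOS, FOSL1, IER2, IER3, MYC and the marker genes named singly were added after their values were seen. Alternatives were DESeq2 (1.42.0), limma-voom (3.58.1), RLE, upper-quartile and library-size scaling, no filter, filterByExpr, a replicate block, each library left out, and glmTreat against a 1.2-fold change. The code was tested on simulated counts. The result of 1 listed gene is not reported here.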

Additional observations from a re-analysis of the deposited data

How the results depend on the processing

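ETV1, ETV4, ETV5, ETS2 and ELK3 were called higher under all 15 alternatives. With the null set at a 1.2-fold change (glmTreat), 5 of the 10 ETS genes and 868 of all genes were called, that null being wider. ETV6 and ELK4 were lost only there, ETS1 there and without 2 of the libraries, and ELK1 there, with DESeq2 and without 4 of the libraries. GABPA, never called, had a log2 fold change of -0.0141 without E8 control replicate 2, and -0.0141 to 0.108 over the libraries left out in turn. Left-out libraries gave 7 to 9 ETS genes called, and 3114 to 3674 of all genes, against 4173 with all 6 libraries. Replicate numbers did not pair the samples (correlations of same-numbered deviations 0.0081, -0.0111 and 0.0555). No sample correlated best with its own number, and correlations between different numbers ran from -0.222 to 0.214. With the replicate block, 9 ETS genes and 4444 of all genes were called. In the remaining ETS family the lower calls numbered 2 with DESeq2 and 3 to 5 with a library left out. Among cofactors they numbered 2 with DESeq2 and 2 to 3 with a library left out. Over all genes tested the lower calls numbered 1784 with DESeq2 and 1661 to 1938 with a library left out, against 2157 with edgeR on all 6 libraries. The cause of these losses was not tested.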
